A study of Mus musculus with 8 samples.

Results

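Genes that are transcribed into spliced noncoding RNAs and carry small nucleolar RNAs (snoRNAs) in their introns were followed here, 8 of the 24060 rows of the data: Gas5, Snhg1, Snhg3, Snhg4, Snhg5, Snhg6, Snhg8 and Snhg12. They were chosen by gene symbol, and all 8 had a row and passed the filter on low values. The libraries came from the cortex of 4 mice of about postnatal day 80, all hemizygous for Aldh1l1-creERT2 and heterozygous for the Ribotag allele. The Aldh1l1 transgene drives an inducible Cre recombinase mainly in astrocytes, and the Ribotag allele then adds a hemagglutinin (HA) tag to the ribosomal protein Rpl22 of recombined cells. Each mouse gave an HA IP library, of RNA precipitated with tagged ribosomes, and an input library, of RNA from the cleared lysate of all cortical cells, astrocytes included. The 4 HA IP and 4 input libraries carry the numbers 579, 580, 581 and 595, which are read here as those of the 4 mice; how recombination was induced is not described in the labels, and males and females were used without a label that tells them apart.

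Host genes of this kind are unusual in that their introns carry the better known product. The introns release snoRNAs, of which the box C/D class guides ribose methylation and the box H/ACA class guides pseudouridylation of ribosomal RNA, while the spliced exons leave the nucleus with no long reading frame. In cultured mammalian cells several of these spliced RNAs, those of Gas5 and Snhg1 among them, begin with a terminal oligopyrimidine (TOP) tract like the messages of ribosomal proteins, are taken up by ribosomes and are then destroyed by nonsense-mediated decay. A library of ribosome-bound RNA beside total lysate RNA therefore measures how much RNA counted to each host was recovered with tagged ribosomes relative to the whole tissue. The rows need not hold spliced RNA alone. For Snhg8 the gene length in the values was 784 bases, against an annotated span of 785, so no intron was set apart there.

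The starts of these genes are shown first, because ribosomal protein messages and several snoRNA hosts are known to share a pyrimidine tract there. The RefSeq promoter table (GRCm38.p6, the assembly also called mm10) had windows for 6 of the 8 genes, Snhg4 and Snhg6 not among them. Each line gives 45 bases before the annotated start and 50 from it, read along the transcribed strand. Capitals mark the letters TATA where they began 20 to 40 bases before the start, and the first C followed by at least 4 letters that were each C or T within 10 bases of the start. For Gas5, which has annotated starts in 2 windows, the downstream one is printed; the upstream one held neither motif, and a gene was counted where any of its windows held one. The stretches are chr1:161035121-161035215 (plus strand) for Gas5, chr19:8723442-8723536 (plus) for Snhg1, chr9:88522848-88522942 (minus) for Snhg5, chr4:132353637-132353731 (minus) for Snhg3, chr3:123508287-123508381 (minus) for Snhg8 and chr4:132308633-132308727 (plus) for Snhg12.
Gas5: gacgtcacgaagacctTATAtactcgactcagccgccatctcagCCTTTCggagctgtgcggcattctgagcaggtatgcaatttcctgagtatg
Snhg1: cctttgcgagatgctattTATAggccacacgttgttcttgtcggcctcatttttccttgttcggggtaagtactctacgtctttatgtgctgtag
Snhg5: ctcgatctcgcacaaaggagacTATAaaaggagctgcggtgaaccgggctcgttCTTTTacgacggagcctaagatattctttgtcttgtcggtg
Snhg3: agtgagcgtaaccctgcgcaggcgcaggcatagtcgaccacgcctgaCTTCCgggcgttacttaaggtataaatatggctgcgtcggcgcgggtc
Snhg8: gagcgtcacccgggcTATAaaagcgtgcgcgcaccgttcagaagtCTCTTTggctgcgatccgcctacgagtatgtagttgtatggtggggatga
Snhg12: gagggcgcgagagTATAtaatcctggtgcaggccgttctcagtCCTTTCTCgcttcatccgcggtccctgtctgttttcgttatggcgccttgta

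By these letters, 5 of the 6 genes had a pyrimidine tract within 10 bases of a start, against 60.3% of 58 ribosomal protein genes and 34.4% of all 27018 genes with a window. In Snhg3 and Snhg5 the tract began 2 and 9 bases after the annotated start. Ribosomal protein messages are known to share such a tract, so a search of this kind at annotated starts can miss tracts. Snhg1, named above among hosts with a TOP tract, was the gene without one by this search at its annotated start. TATA, which reads the same on both strands, stood before a start of 5 of the 6 genes, against 10.3% of the ribosomal protein genes and 6.91% of all genes with a window, and 4 of the 6 had both. The tract was sought on the transcribed strand only. In Snhg3 the letters TATA lie after the annotated start, outside the stretch searched. A match of letters is a description of the sequence and does not show a functional element.

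Depth ran from 33834388 to 53625125 fragments a library, as worked back from the FPKM values (fragments per kilobase of gene, scaled to the depth of the library). Tagged ribosomes carried astrocyte RNA: all 10 astrocyte markers examined were higher in HA IP than in input, and Aldh1l1 averaged 406 ± 26.2 FPKM in the precipitates and 21.8 ± 0.926 FPKM in the lysates (SD, n = 4 each). All 10 neuron and all 10 microglia markers were lower, as were 9 of 10 oligodendrocyte markers, Cnp being higher, and 9 of 10 endothelial markers. The neuron markers together still took 547 to 649 CPM (fragments scaled to a common library size) in HA IP, against 12000 to 12950 in input, and the part of such RNA in the values of the 8 hosts was not tested. Over all 15605 genes tested with limma on log2(FPKM + 0.1), after scaling by trimmed means of M-values (TMM) and with the animal as a block, 42.9% were called higher and 42.5% lower in HA IP at an adjusted p under 0.05. TMM scaling added 0.83 to each log2 ratio of HA IP to input relative to the deposited FPKM, so both scales are given where they differ. Over all genes the log2 fold change had a median of 0.00 with scaling, against -0.75 without, and on the deposited scale 24.3% of genes were called higher and 62.8% lower.

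Most of the snoRNA hosts were lower on astrocyte ribosomes than in the cortex lysate. Of the 8 genes, 7 were called lower and 1, Snhg5, was called higher after scaling, and on the deposited scale 7 were called lower and none higher (limma, adjusted p = 0.0599 for Snhg5 there). The median of their log2 fold changes was -1.02 with scaling and -1.84 on the deposited scale. All 4 HA IP libraries lay below all 4 inputs for 7 of the 8 genes on both scales; over all genes this held for 38.8% scaled and 59% as deposited, and the reverse, all HA IP above all input, for 39.9% and 22%. Together the 8 took 77.4 ± 12.6 CPM in HA IP and 241 ± 29.1 in input (SD, n = 4 each). HA IP and input differ both in the cells sampled and in whether the RNA was bound to ribosomes. A lower level of a transcript in astrocytes than in other cells and less of it on astrocyte ribosomes therefore cannot be told apart. In bulk RNA a lower share of the cells that hold a transcript and less of it per cell cannot be told apart either.

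**Figure D1:**
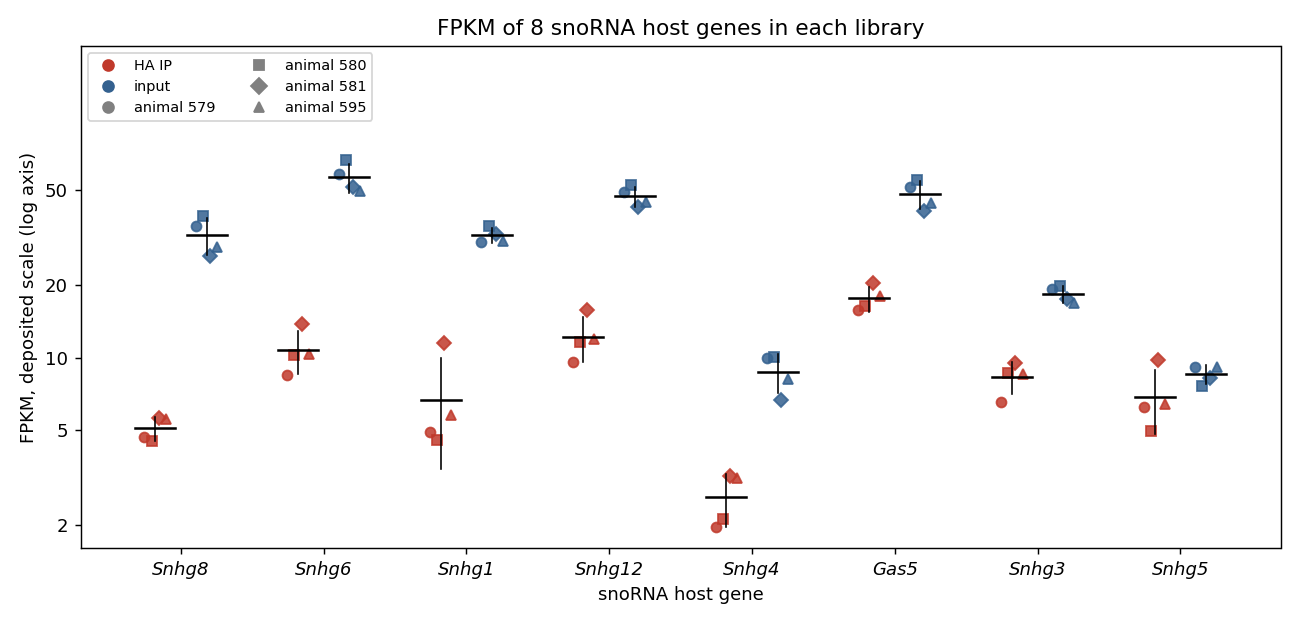
FPKM on the deposited scale (log axis) of the 8 host genes, ordered by fold change, in HA IP (red, left) and input (blue, right); symbols are animals, horizontal bars means and vertical bars SD (n = 4). For 7 genes every HA IP library lies below every input library, and only for Snhg5 do the groups overlap.

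Among the box C/D hosts, Gas5, named for RNA that builds up in growth-arrested cells, was the most abundant of the 8 in HA IP. It had 15.7, 16.4, 20.5 and 18.1 FPKM in the HA IP libraries of animals 579, 580, 581 and 595, against 51.7, 54.9, 41.1 and 44.2 FPKM in their inputs. Every HA IP library lay below every input library, on the deposited and on the scaled values. After scaling its log2 fold change was -0.61 (SE 0.12; limma, adjusted p = 0.00174), a fall to 0.657 of the input level, and -1.43 on the deposited scale. It was also the best counted member, with 7598 fragments over the HA IP libraries and 19562 over the inputs. RefSeq places Gas5 at chr1:161034601-161038539, with 8 transcripts and 8 snoRNAs inside it, and its first 264 bases overlap Zbtb37 on the opposite strand. Zbtb37 had a log2 fold change of -2.38 (SE 0.15), and how the counting treated reads in the overlap is not given in the sources used here.

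Snhg1, which also carries 8 annotated snoRNAs, Snord22 among them, lies at chr19:8723487-8726326. Its values were 4.89, 4.55, 11.5 and 5.77 FPKM in HA IP of animals 579, 580, 581 and 595, against 30.5, 35.5, 32.9 and 30.7 FPKM in input. The inputs were close together, while HA IP of animal 581 stood well above the other HA IP libraries, still below every input. Scaled, Snhg1 fell by 1.54 on the log2 scale (SE 0.20; limma, adjusted p = 0.000196), and its log2 fold change was -1.81 without animal 581.

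Snhg6, at chr1:9942025-9944118, had the highest input mean of the 8. It carried 8.48, 10.3, 13.8 and 10.3 FPKM in HA IP of the 4 animals in the same order, against 58.6, 66.6, 51.4 and 49.7 FPKM in input. The groups were far apart, and the log2 fold change was -1.57 (SE 0.13; limma, adjusted p = 1.73e-05). Its annotated span shares 1582 bases with Mcmdc2, which was much scarcer: it averaged 0.236 ± 0.286 FPKM among precipitates and 0.770 ± 0.441 FPKM among lysates (SD, n = 4 each).

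Snhg5, at chr9:88521052-88522897, behaved differently from the other 7. HA IP libraries of animals 579, 580, 581 and 595 held 6.23, 4.96, 9.79 and 6.41 FPKM of it, against 9.14, 7.59, 8.19 and 9.15 FPKM in input. The groups overlapped, since HA IP of animal 581 exceeded all inputs and the other HA IP libraries lay below them. After scaling all 4 animals had a higher value in HA IP, and the gene was called higher by 0.47 (SE 0.14, 95% interval 0.14 to 0.80; limma, adjusted p = 0.0155). On the deposited scale the direction was reversed, at -0.35 with no call, and 3 of 4 animals were lower in HA IP. Without animal 581 the scaled value was 0.28 (limma, adjusted p = 0.0145), so the size but not the call rested on that animal. Placed in order of fold change, Snhg5 was the only gene whose range over animals did not touch that of its neighbour, Snhg3.

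The box H/ACA hosts fell by very different amounts. Snhg8, which carries Snora24 and lies at chr3:123507552-123508336, had 4.66, 4.49, 5.62 and 5.54 FPKM in HA IP of animals 579, 580, 581 and 595, against 35.5, 38.9, 26.5 and 29.0 FPKM in input. This was the largest difference of the 8, a log2 fold change of -1.82 (SE 0.14; limma, adjusted p = 8.50e-06), with HA IP at 0.282 of the input level after scaling. Within HA IP its values varied little, while the inputs of animals 579 and 580 were higher than those of 581 and 595.

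Snhg3, at chr4:132351933-132353686, has 2 annotated snoRNAs inside it and showed the smallest fall. Its HA IP values were 6.51, 8.63, 9.49 and 8.58 FPKM in animals 579, 580, 581 and 595, against 19.3, 19.98, 17.5 and 16.8 FPKM in input. On these values the groups were apart in every animal, but most of the difference on the deposited scale (-1.15) was removed by the scaling. Scaled, the log2 fold change was -0.33 (SE 0.10; limma, adjusted p = 0.0207). The call was lost without animal 579 (-0.20, limma, adjusted p = 0.0789), without animal 580 (-0.32, limma, adjusted p = 0.0698) and in limma-voom on the recovered fragments (-0.32, adjusted p = 0.0648).

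Snhg4, the host of Snora74a at chr18:35553410-35558316, was the scarcest of the 8 in HA IP. It had 1.97, 2.12, 3.202 and 3.14 FPKM in HA IP of animals 579, 580, 581 and 595, against 9.97, 10.1, 6.65 and 8.16 FPKM in input. The animals fell into different sizes of change, with log2 ratios of -1.45 and -1.35 in animals 579 and 580 and -0.26 and -0.57 in animals 581 and 595. The fitted log2 fold change was -0.91 (SE 0.20; limma, adjusted p = 0.00416).

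Snhg12 carries snoRNAs of both classes, Snora16a, Snora44, Snora61 and Snord99, at chr4:132308678-132311024. HA IP of animals 579, 580, 581 and 595 gave 9.58, 11.6, 15.8 and 11.95 FPKM, against 49.3, 52.5, 42.5 and 44.5 FPKM in input. No HA IP value came near an input value, and Snhg12 fell by 1.13 on the log2 scale (SE 0.13; limma, adjusted p = 0.000111).

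**Figure D2:**
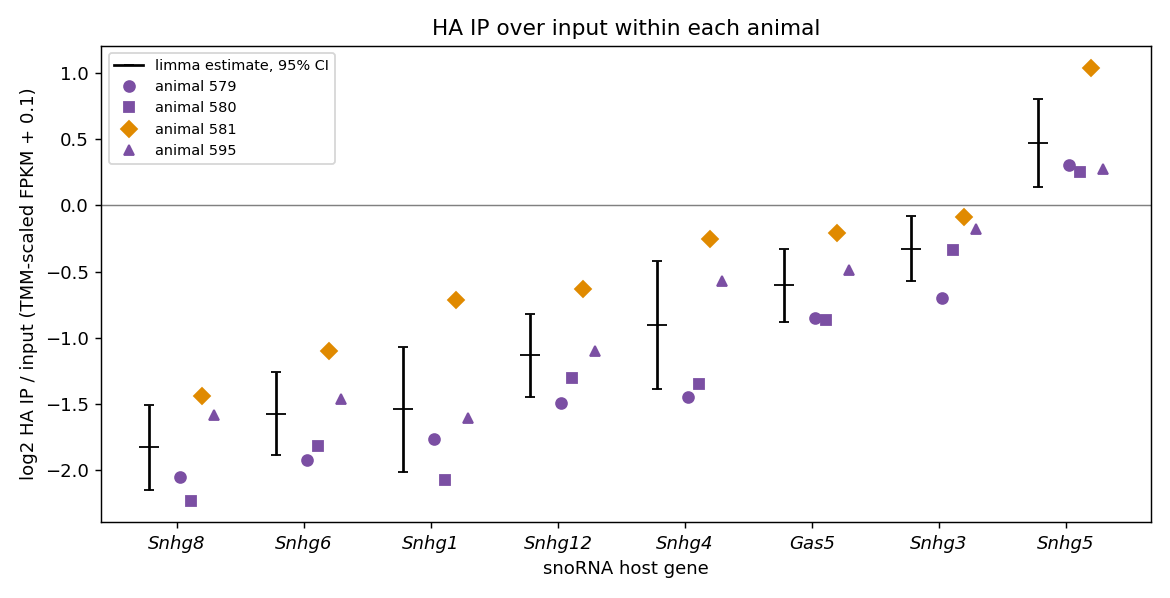
Log2 ratio of HA IP to input within each animal (points) and the limma estimate with its 95% interval (black) for the 8 genes, on TMM-scaled FPKM + 0.1. Animal 581 (orange) has the highest ratio for all 8 genes, and only Snhg5 lies above 0.

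The order of abundance per kilobase differed between the groups. In HA IP it ran from Gas5 (17.7 ± 2.12 FPKM) through Snhg12, Snhg6, Snhg3, Snhg5, Snhg1 and Snhg8 to Snhg4 (2.61 ± 0.655 FPKM), each level a mean with SD (n = 4). Only the step from Snhg8 to Snhg4 separated neighbours there; all other neighbours had overlapping ranges. In input the order was Snhg6 (56.6 ± 7.73 FPKM), Gas5, Snhg12, Snhg8, Snhg1, Snhg3, Snhg4 and Snhg5 (8.51 ± 0.766 FPKM). Ranges were apart between Snhg12 and Snhg8, Snhg1 and Snhg3, and Snhg3 and Snhg4. Snhg5, last in input, stood above Snhg1, Snhg8 and Snhg4 in HA IP. These levels divide by the gene lengths in the authors' values, from 403 bases for Snhg6 to 2550 bases for Gas5, and an inexact length shifts a gene by the same factor in every library.

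The 8 genes varied together between libraries of the same kind. HA IP of animal 581 had the highest scaled value for all 8 genes, while it was the highest HA IP library for 28.8% of all tested genes. Input of animal 580 was the highest input for 7 of the 8, against 22.9% of all tested genes. The same libraries led for the cytosolic ribosomal protein genes: HA IP of animal 581 was highest for 72 of 79 and input of animal 580 for 75 of 79. The lead of HA IP of animal 581 was not particular to these 2 sets. It was highest for 19 of 28 protein-coding snoRNA hosts outside the ribosomal proteins and for 13 of 20 genes for snoRNP proteins and assembly factors. For 12 other noncoding snoRNA hosts it was highest for 5, and HA IP of animal 595 for 7.

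Taken as the median log2 deviation from the group mean, the 8 hosts stood at -0.30, -0.09, 0.32 and -0.02 in HA IP of animals 579, 580, 581 and 595 and at 0.07, 0.18, -0.13 and -0.09 in their inputs. The ribosomal protein genes stood at -0.13, 0.25, 0.43 and -0.56 in HA IP and at 0.08, 0.28, -0.17 and -0.19 in input. All 4 inputs thus had the same sign and nearly the same order in both sets, whereas in HA IP they parted in animal 580, which was below the mean for the hosts and above it for the ribosomal protein genes, and in animal 595, which was low for the ribosomal protein genes only. The median log2 ratio of HA IP to input of the 8 hosts was -1.47, -1.33, -0.45 and -0.84 in animals 579, 580, 581 and 595, and that of the ribosomal protein genes was -0.19, -0.03, 0.64 and -0.36. The median of the hosts therefore lay below that of the ribosomal protein genes in every animal, with differences of -1.28, -1.30, -1.08 and -0.47. This does not hold for each host. Snhg5, at 0.31, 0.25, 1.04 and 0.28, lay above the ribosomal median in every animal, and Snhg3, at -0.18, lay above it in animal 595. The part of RNA quality or of preparation in this shared variation was not tested. Without animal 581, 7 of the 8 genes were called lower and 1 higher, as with all animals.

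**Figure D3:**
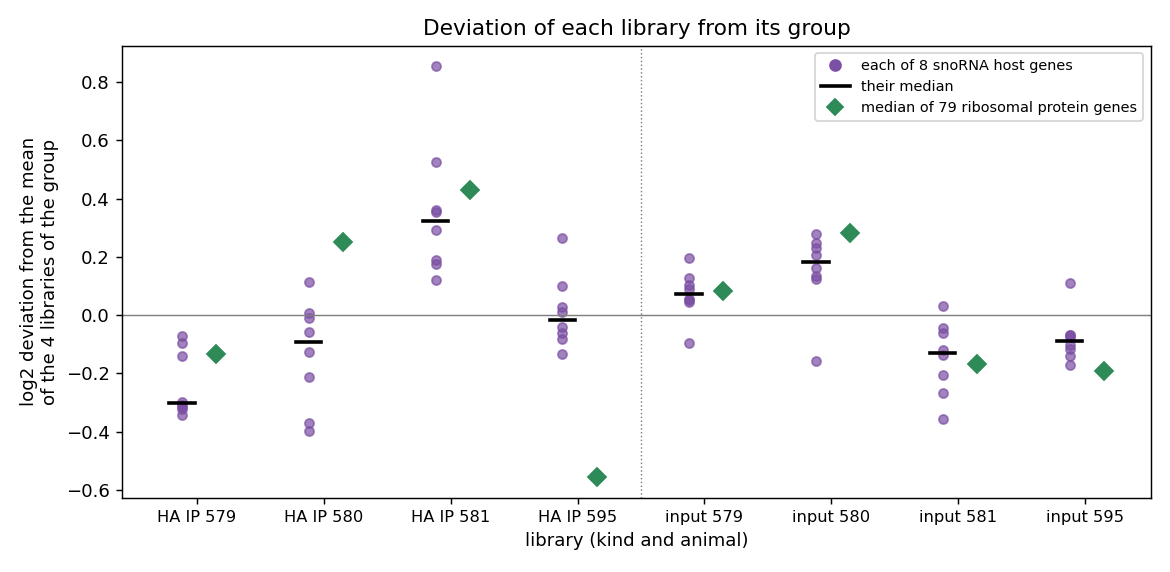
Log2 deviation of each library from the mean of the 4 libraries of its kind, HA IP on the left and input on the right, for each of the 8 host genes (circles), their median (black bar) and the median of 79 ribosomal protein genes (green diamonds). Hosts and ribosomal protein genes share their sign in every input library, and both are highest in HA IP 581.

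The files had rows for 9 snoRNAs inside 6 of the hosts, with 44 fragments in all over the HA IP libraries and 479 over the inputs. Snord22, in Snhg1, had 3, 0, 2 and 3 fragments in HA IP of animals 579, 580, 581 and 595, against 28, 17, 22 and 34 in input. In Snhg12, Snora61 had 0, 1, 2 and 6 fragments in HA IP, against 23, 30, 23 and 40 in input, and Snord99 had 3, 0, 5 and 2, against 29, 17, 25 and 28. These 3 rows were the only ones past the filter, and all 3 passed it through their inputs alone. No HA IP library held as much as 0.246 CPM, the minimum for testing, of any of them. Their log2 fold changes were -3.03 (SE 0.44), -3.64 (SE 0.70) and -3.20 (SE 0.64). Rows kept in this way were bound to lie lower in HA IP as CPM, so no call is drawn from them. At so few fragments the pseudocount and single fragments weigh on these folds. Snora24, in Snhg8, had no fragment in any library. It lies within the stretch counted for Snhg8, and how the counting treated reads there is not given in the sources used here. Its lack of fragments therefore need not mean that the RNA was absent.

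Set against their hosts within each library, a measure that no scaling between libraries can move, the snoRNA rows had 3.81, 1.11, 3.03 and 8.67 fragments per 1000 host fragments in HA IP of animals 579, 580, 581 and 595, and 13.9, 12.1, 14.03 and 13.6 in input. All HA IP values lay below all input values. The means were 4.15 ± 3.21 in HA IP and 13.4 ± 0.896 in input (SD, n = 4 each). A two-sided exact permutation test gave p = 0.0286, the smallest that 4 against 4 unpaired libraries allow. It exchanged libraries without regard to the animal. An exchange paired by animal was not run and could not reach so small a p with 4 animals. Snhg12 and its 4 rows gave more than the rest: without them the means were 1.72 in HA IP and 5.56 in input (exact permutation test, p = 0.0571). The groups then overlapped, since HA IP of animal 595 lay above input of animal 580. Without any 1 animal the difference was -10.7 to -8.66, with p = 0.1 in the same unpaired permutation test, the smallest that 3 against 3 allows. This comparison was chosen after the values had been seen. The libraries were selected for messenger RNA and the rows are short, so mature snoRNAs and unspliced host RNA cannot be told apart in them.

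**Figure D4:**
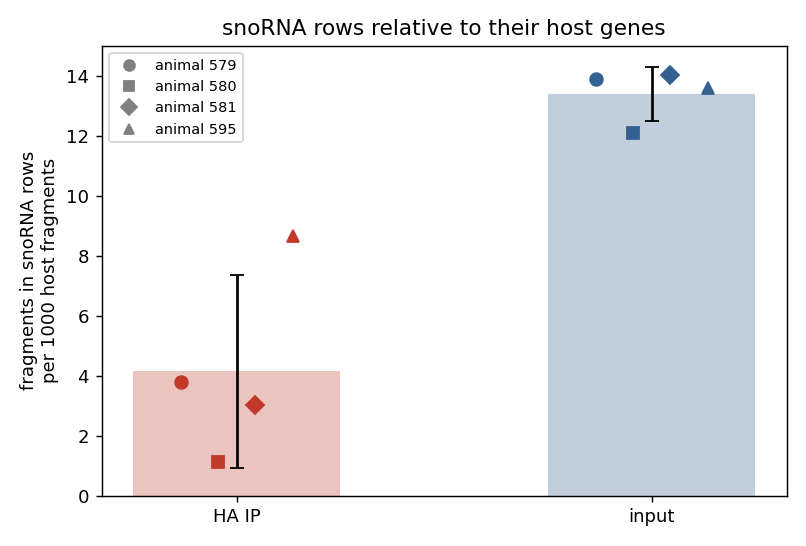
Fragments in 9 snoRNA rows per 1000 fragments of their 6 host genes, in HA IP (left) and input (right); bars are means, error bars SD (n = 4) and points animals. The 4 HA IP libraries lie between 1.11 and 8.67, all below the inputs at 12.1 to 14.03. Without Snhg12 and its rows (not drawn) the groups overlap.

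Other noncoding snoRNA hosts were mostly lower as well. The list had 13 genes, each found in the files (7 under an older symbol), of which 12 were tested: 8 were called lower, 1 higher and 3 neither, beside the 42.5% and 42.9% of all genes. The median of the 12 was -0.97 on the log2 scale. On the deposited scale 11 were called lower and 1 higher, beside 62.8% and 24.3% of all genes. Rian, an imprinted neuronal transcript with many box C/D snoRNAs, averaged 10.5 ± 5.54 FPKM with the ribosomes and 166 ± 19.6 FPKM in the lysate (SD, n = 4 each) and changed by -3.26 on the log2 scale (SE 0.20). Snhg11, also known from neurons, changed by -2.15 (SE 0.17) and Zfas1, a TOP host like Gas5, by -1.10 (SE 0.16). Snhg18 was the exception, with 1.86 ± 0.205 FPKM among HA IP libraries and 1.22 ± 0.248 FPKM among inputs (SD, n = 4 each); it changed by 1.36 (SE 0.15) and was called higher on the deposited scale too. The row that RefSeq now counts to Snhg14 (-0.15, SE 0.07), and those of Snhg15 (-0.69, SE 0.29) and Snhg20 (-0.18, SE 0.14), did not pass.

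Protein-coding genes that carry snoRNAs in their introns had the opposite balance after scaling. Of 28 such genes outside the ribosomal proteins, 21 were called higher, 3 lower and 4 neither, and the median log2 fold change was 0.77. Without scaling 8 were higher and 11 lower, and the median was -0.06. Ncl, which encodes the nucleolar protein nucleolin, changed by 1.51 (SE 0.09) and the chaperone gene Hspa8 by 1.26 (SE 0.10), both higher on the deposited scale as well. Rcc1, which encodes a nuclear exchange factor, changed by 1.36 (SE 0.10), while the smaller rise of the translation factor gene Eef1b2, 0.42 (SE 0.16), became a fall of -0.41 on the deposited scale. The members that went against the rest were Cnot1, a scaffold of the deadenylase complex, at -1.08 (SE 0.12), Taf1d at -0.55 (SE 0.18) and the helicase gene Eif4a2 at -0.45 (SE 0.09). Over all genes 42.9% were called higher and 42.5% lower with scaling and 24.3% and 62.8% without it, and the list was not tested against the noncoding hosts.

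The machinery around these RNAs was followed too. Of 20 genes for snoRNP proteins and their assembly factors, 15 were called higher, 4 lower and 1 neither (without scaling, 5 higher and 9 lower), beside 42.9% of all genes higher and 42.5% lower with scaling and 24.3% and 62.8% without it. The share higher without scaling was thus close to that of all genes, and the median of their log2 fold changes was 0.61. Of these 20 genes 3, Dkc1 among them, also stood in the list of protein-coding snoRNA hosts, and were called higher with scaling. The box C/D methylase gene Fbl changed by 1.20 (SE 0.09) and the H/ACA pseudouridine synthase gene Dkc1 by 1.36 (SE 0.06), against the assembly factor gene Znhit3 at -1.22 (SE 0.08). Of 20 genes for nonsense-mediated decay, 13 were called higher, 2 lower and 5 neither (7 and 8 on the deposited scale), to be read beside the same shares of all genes, and their median was 0.72. The helicase gene Upf1 changed by 1.10 (SE 0.08), whereas Smg1, the kinase that phosphorylates the Upf1 protein, changed by -2.35 (SE 0.15).

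Noncoding RNAs listed here as nuclear, a place in the cell that was not checked for each of them, were mostly lower too, much like the other noncoding snoRNA hosts. Of 11 tested, 7 were called lower, 1 higher and 3 neither, and their median was -0.78; without scaling 10 were lower and 1 higher. Of all genes 42.5% were lower with scaling and 62.8% without it. Meg3 changed by -1.91 (SE 0.14), Miat by -1.86 (SE 0.13) and the paraspeckle RNA Neat1 by -1.03 (SE 0.09). Malat1, the abundant RNA of nuclear speckles, averaged 86.1 ± 45.3 FPKM among HA IP libraries and 157 ± 34.3 FPKM among inputs (SD, n = 4 each), and its scaled difference of -0.13 (SE 0.29) did not pass (limma, adjusted p = 0.680). HA IP of animal 595 was the highest HA IP library for 8 of the 11, and HA IP of animal 581, which led for the 8 hosts, for none. The list together took 1429 to 3078 CPM in HA IP, against 7484 to 8108 in input, and its part in the values of the 8 hosts was not tested. Pantr1, with 2.72 (SE 0.07), went the other way.

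Ribosomal protein genes, the largest coding class that shares the TOP start, were centred near the median of all genes. Of 79, 26 were called higher, 26 lower and 27 neither, their median being 0.02 on the log2 scale; 17 were called higher without animal 580, and without scaling 4 were higher and 55 lower. Over all genes 42.9% were higher and 42.5% lower with scaling, and 24.3% and 62.8% without it. Rpl22, which bears the tag, changed by 0.68 (SE 0.10) with scaling and by -0.14, with no call, without it. Among them, the snoRNA host Rpl13a changed by -0.64 (SE 0.18), Rpl17 changed by -1.51 (SE 0.17), and the snoRNA host Rps3, at -0.19 (SE 0.16), was not called.

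**Figure D5:**
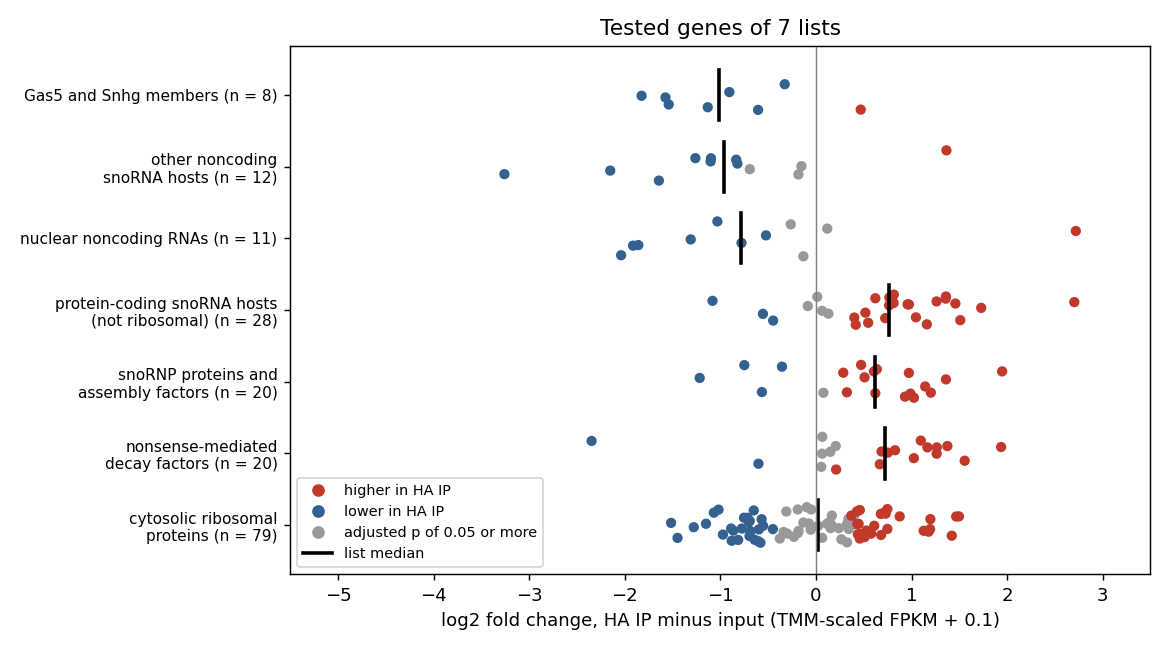
Log2 fold change of HA IP minus input on TMM-scaled FPKM + 0.1 for the tested genes of 7 lists; black bars are list medians. The medians are -1.02 for Gas5 and the Snhg genes and -0.97 for other noncoding hosts, against 0.77 for protein-coding hosts; on the deposited scale the last median is -0.06.

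The tested genes whose 8 values lay nearest to those of Gas5, after each gene was centred on its mean, were Rell1, Tmem199, Zfp276 and Spcs3, at Euclidean distances of 0.227, 0.238, 0.252 and 0.281 on the log2 scale. The fourth nearest row carried a spreadsheet date in place of a symbol. Their log2 fold changes of -0.61, -0.54, -0.51 and -0.55 were close to that of Gas5, and likeness over 8 libraries rests mainly on the difference between HA IP and input.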

How the data were processed

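Messenger RNA was selected, made into stranded paired-end libraries from 100 ng of RNA and sequenced, per the labels' protocols. Tools named in the submitters' processing notes are bcl2fastq 2.17, STAR and HTSeq, with build mm10; other versions, annotation and strand setting were not given in the sources used here. The deposited files name no unit. The values the authors deposited were taken as FPKM, since a whole gene length and a whole library total could be found that bring each of the 142235 nonzero values within 0.001 of a whole number of fragments, a tolerance the lengths were chosen to meet. FPKM, not these fragments, carried the tests.

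Genes with at least 0.246 CPM (10 fragments in a median library) in 4 libraries and 15 fragments in all were tested, on log2(FPKM + 0.1) and allowing the variance to follow intensity, by limma 3.58.1 (R 4.3.3). FPKM were first divided by unweighted TMM factors (trims 0.3 and 0.05, own code). Two-sided p-values were adjusted by Benjamini-Hochberg over the 15605 genes. A pseudocount makes folds of low genes smaller. The animal number was a block, because the labels give 4 mice and 4 numbers, each on 1 HA IP and 1 input library: deviations of same-number libraries correlated at 0.22 to 0.40 over genes, and those of other pairs at -0.27 to 0.11. Permutation tests used scipy 1.17.1 and exchanged libraries without regard to the animal.

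Members and lists were chosen with earlier results of these data known, lists from general knowledge. Named genes are the members, preset examples of each list, up to 3 list members called against most, overlapping neighbours, snoRNA rows inside hosts and the 5 genes nearest to Gas5; a few are not reported here. Sequences are from RefSeq tables (GRCm38.p6). Alternatives are in the closing section; limma-voom and those for the snoRNA rows were added after the data were seen.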

Additional observations from a re-analysis of the deposited data

Results flagged for a closer look

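In Snhg5, the log2 ratio of HA IP to input of animal 581 was 1.04, far from the next highest, 0.31 in animal 579, and the other animals lay between 0.25 and 0.31. This stood out as a single value among 4 by Dixon's criterion at 95% (a gap of 0.934 of the whole range). It was the only one of 28 groups of 4 values checked that did so, and chance flags about 1 in 20 groups. HA IP of animal 581 was also the highest HA IP library for the other 7 host genes and for 72 of 79 ribosomal protein genes. Without animal 581 Snhg5 had a log2 fold change of 0.28 and was still called higher (limma, adjusted p = 0.0145).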

How the results depend on the processing

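Scaling mattered most. Without TMM scaling 3791 genes were called higher and 9794 lower, 0 host genes were called higher, and Snhg5 was reversed to -0.35; the other 7 hosts kept their direction and call. Snhg3 lost its call in limma-voom on recovered fragments (-0.32) and without animal 579 (-0.20) or 580 (-0.32); the cause was not tested. Over the 4 fits that each left out 1 animal it ran from -0.40, without animal 581 and still called, to -0.20. Leaving out 1 animal gave 6 to 7 hosts called lower, 1 higher, and 6394 to 6615 genes called higher and 6284 to 6543 lower. All other fold changes of the 8 hosts under the alternatives run (pseudocounts of 0.01 and 1 FPKM, median-of-ratios scaling, no filter, a filter of 1 CPM, no intensity trend, no replicate block) kept direction and call. Limma-voom called 6744 genes higher and 6555 lower. Without the replicate block, that is unpaired, 6530 genes were called higher and 6464 lower. Counts for the ribosomal protein list also moved without animal 580, to 17 called higher. Low fragment numbers limit the snoRNA rows, with 44 fragments in HA IP in all.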
